A study of Mus musculus with 2 samples.

Results

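The regions described are 756 transcript models of known genes in mouse gastrocnemius, the calf muscle. They are models of the class called ISM (incomplete splice match), subtype Suffix. Their chain of introns equals the 3′ part of a longer chain of the same gene, so that the chain lacks 1 or more 5′ introns. A model was taken when its gene was annotated and the same chain was classed as Suffix in both libraries with at least 5 reads in each. The 756 models lie in 371 genes. They were chosen out of 16469 Suffix models of known genes in replicate 1 and 8438 in replicate 2, among 76001 and 49981 transcript models of any class in these libraries. Their read counts and their recurrence were used to choose them and are given as a description.

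The study holds 1 group of 2 libraries of long-read RNA-seq. Both come from gastrocnemius of male B6CASTF1/J mice, a hybrid strain, at 14 days of age, with 2 µg of RNA as input, and are labelled biological replicates 1 and 2. The libraries carry the same donor identifier and the biosample text speaks of several males, so pooling of animals cannot be told apart from single animals. A difference between the libraries is therefore a difference between 2 samples and not between conditions, and p-values from reads compare these libraries alone.

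Transcription of a gene starts at a promoter, and some muscle genes have a further promoter inside the gene that gives a shorter transcript with its own first exon, as known for the myosin light chain gene Myl1. In long-read sequencing of cDNA, a transcript from such an inner promoter and a molecule that lost its 5′ part both give a read that lacks the 5′ exons. The 3′ introns are shared in both cases, so the intron chain of a Suffix model does not tell them apart. Where a start lies, whether reads pile up in 1 exon, and what share of a gene's reads begins there are the measurements that bear on the question.

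Without ERCC spike-in RNAs, replicate 1 held 1094607 reads and replicate 2 held 626289, of which 1072978 and 605560 were in known genes. Suffix models took 81243 reads in replicate 1 and 49401 in replicate 2, which is 7.57% (Clopper-Pearson 95% interval 7.52 to 7.62) and 8.16% (8.09 to 8.23) of the reads in known genes, or 7.86 ± 0.414% (SD, n = 2). Intervals cover counting error only. Most Suffix models were seen once: 64.7% of them in replicate 1 and 67.5% in replicate 2 had a single read. The 6 fixed markers of fast muscle fibres summed to 300707 CPM (counts per 1000000 reads) in replicate 1 and 282734 in replicate 2. Those of slow fibres had 1186 and 1718 CPM, of fibroblasts 8757 and 3762, of endothelium 302.4 and 201.2, of Schwann cells 298.7 and 531.7, of red cells 621.2 and 1138, and of macrophages 49.3 and 38.3. All of these marker genes were detected in both libraries, and fast muscle markers made up most of what the lists measured.

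The recurrent models took 48237 reads in replicate 1 and 38067 in replicate 2. This is 59.4% and 77.1% of the Suffix reads, and 4.50% and 6.29% of the reads in known genes. Single chains outside the 756 can weigh on the class totals. In the fast troponin I gene Tnni2 such a chain held 87.7% of the gene's 3857 Suffix reads in replicate 1. The gene had 401 Suffix reads in replicate 2. The median model had 22 reads in replicate 1 and 11 in replicate 2, while the 10 with the most reads held 18.3% and 40.3% of the reads of all 756. Just inside the threshold, 214 models had 5 or 6 reads in the lower library, with medians of 10 and 6 reads. Just outside it, 507 chains had 3 or 4 reads in the lower library, with medians of 5 and 4 reads. Another 8 chains with at least 5 reads in each library were Suffix in 1 library and of another class in the other.

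**Figure D1:**
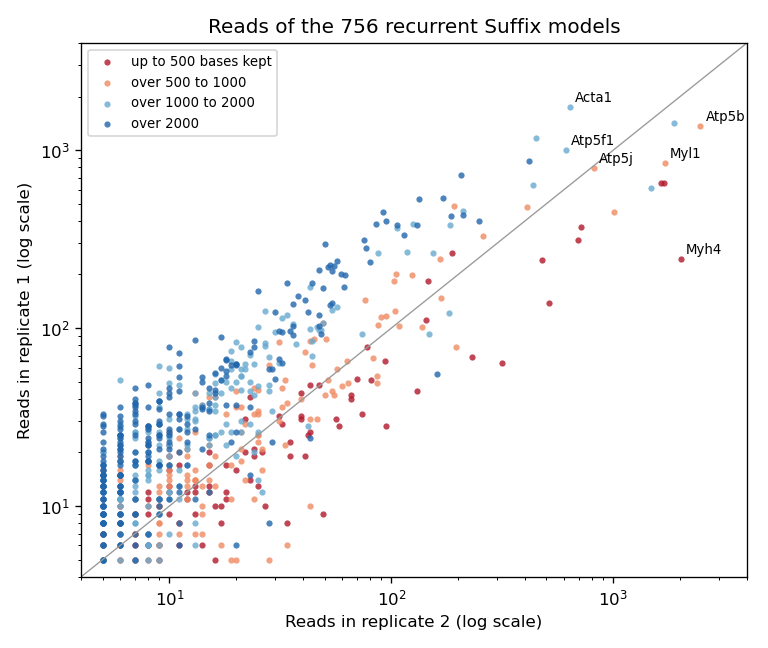
Reads of each of the 756 recurrent Suffix models in replicate 1 (vertical, log scale) and replicate 2 (horizontal, log scale), coloured by the bases from the start exon to the 3′ end of the longer annotated transcript, with the line of equal counts in grey. Of 94 models that keep up to 500 bases, 28 have more reads in replicate 1 and 61 more in replicate 2, among them Myh4, which has 243 reads in replicate 1 and 2013 in replicate 2, and Acta1, which keeps more bases, has 1755 and 638.

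The edges of the start exons are shown for 6 models that carry much of what follows, because this is where nearly all deposited starts sit. Each line gives the last 30 bases of the preceding exon of the longer transcript in lower case and the first 30 bases of the start exon in capitals, 5′ to 3′, from the GENCODE M21 transcripts on mm10. The capitals lie at chr7:45337887-45337916 (+) in exon 3 of 6 of Hrc-201, chr11:67259083-67259112 (+) in exon 36 of 38 of Myh4-202, chr6:11905233-11905262 (-) in exon 3 of 4 of Ndufa4-205, chr7:19420107-19420136 (+) in exon 7 of 8 of Ckm-203, chr8:123893441-123893470 (-) in exon 3 of 7 of Acta1-201 and chr7:29020237-29020266 (-) in exon 91 of 106 of Ryr1-202. All 6 start exons are coding. In each of these genes the deposited start of the model was the first capital base in both libraries.
Hrc exon 3: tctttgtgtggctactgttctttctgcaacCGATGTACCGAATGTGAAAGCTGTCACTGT
Myh4 exon 36: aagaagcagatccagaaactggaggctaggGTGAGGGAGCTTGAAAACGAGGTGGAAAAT
Ndufa4 exon 3: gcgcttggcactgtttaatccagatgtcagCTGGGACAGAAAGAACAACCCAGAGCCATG
Ckm exon 7: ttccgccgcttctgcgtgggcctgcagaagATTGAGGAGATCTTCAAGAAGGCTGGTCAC
Acta1 exon 3: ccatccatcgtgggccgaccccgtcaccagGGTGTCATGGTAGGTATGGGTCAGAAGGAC
Ryr1 exon 91: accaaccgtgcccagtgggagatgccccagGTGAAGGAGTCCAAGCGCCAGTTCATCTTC

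Deposited starts sat on annotated exon edges far more often than anywhere else. Of the 756 models, 705 in replicate 1 and 702 in replicate 2 (93.3% and 92.9%) began at exactly the first or last base of an annotated exon. The same held for Suffix models seen in a single read, of which 94.8% in replicate 1 and 95.9% in replicate 2 began exactly at such a base. A deposited start thus cannot be read as the first base of the RNA, and starts given below are deposited starts in this sense. The start exon of a model was taken from its first intron. Where the deposited start lies upstream of every annotated exon with that donor, it falls outside the start exon. Whether the software that made the models moved their ends to annotated exon edges is not given in the sources used here and was not tested. In Myl1 the start at chr1:66926622, the same in both libraries, lies 85 bases inside exon 4 of Myl1-202 and falls on the edge of another annotated exon. In Atp5b the start at chr10:128089041 lies 84 bases inside the widest annotated form of exon 9 and is the annotated start of another transcript.

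**Figure D2:**
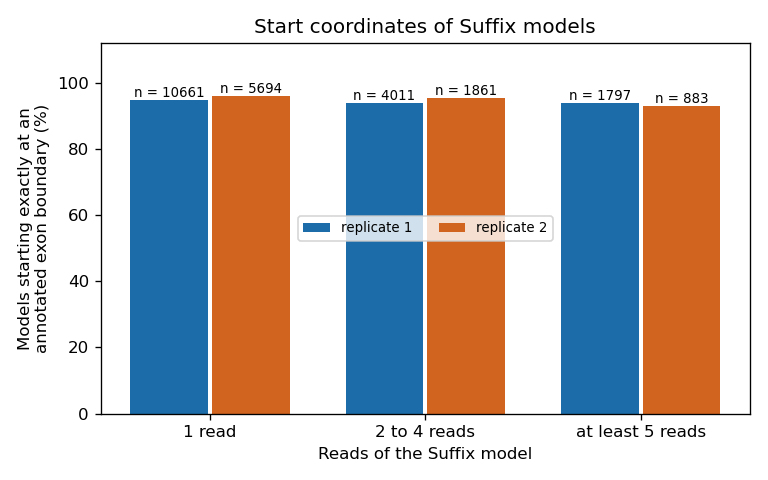
Percent of Suffix models of known genes whose start lies exactly on an annotated exon boundary, by the number of reads of the model, in replicate 1 (blue) and replicate 2 (orange). Bars start at 0 and n gives the number of models; the bars lie between 93.0% and 95.9%, also for models seen once.

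Set against the exons that share their first splice donor, 569 models in replicate 1 and 580 in replicate 2 began at the 5′ edge of such an exon, 526 of them in both. A start inside the exon was found for 83 and 90 models, with 54 in both libraries. Models that began upstream of every annotated exon with that donor numbered 101 in replicate 1 and 83 in replicate 2, and 70 (9.26%) did so in both by more than 10 bases. Most of these began in another annotated exon, with 86 in replicate 1 and 73 in replicate 2, at a median of 323 and 304 bases upstream. The first exon of such a model runs unbroken from its start to the donor. It can therefore hold an intron of the longer transcript unspliced and reach as far as the gene's first exon. How many models do so was not counted. For 44 models the start lay upstream in only 1 library. A start upstream in both libraries could still differ between them. In Ckm, which encodes muscle creatine kinase, the 7-exon model with 430 reads in replicate 1 and 211 in replicate 2 began at chr7:19413748 in replicate 1 and at chr7:19411063, 2685 bases farther upstream, in replicate 2. Its start exon, exon 2 of Ckm-203, begins at chr7:19414119. The start of replicate 2 lies in exon 1 (chr7:19411025-19411146).

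The start was at the same base in both libraries for 616 models (81.5%) and within 10 bases for 646 (85.4%). Other classes of unannotated chains with at least 5 reads in each library also gave the same base in most cases. The same base was given for 21 of 24 Prefix chains (87.5%), for 248 of 331 chains with new combinations of known splice sites (74.9%) and for 176 of 231 chains with a new splice site (76.2%). The difference between the classes was not tested. The shares also differed by the size of the start exon. Among 718 models with a start exon of up to 500 bases, 83.6% began at the same base in both libraries and 94.3% sat on an exon edge in each. Among 38 models with a longer start exon, 42.1% began at the same base, 73.7% in replicate 1 and 65.8% in replicate 2 sat on an edge, and the median distance between the libraries was 236.5 bases.

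Starts off every exon edge in both libraries were rare, with 18 models, and 9 of these gave the same base in both libraries. The other 9 gave starts from 29 to 2156 bases apart. In Xirp2, which encodes an actin-binding protein of muscle, the 3-exon model began in an exon of 9265 bases at positions 2156 bases apart. The 6-exon model of Ttn, the giant sarcomere spring titin, had starts 1394 bases apart and took 25.2% (62 of 246) and 24.7% (19 of 77) of the gene's reads in replicate 1 and replicate 2. In Lmod3, a nucleator of thin filaments, the starts were 297 bases apart, and in Naca, whose muscle form carries a long extra exon, 271 bases apart. Of the 9 models with the same base, those of Atp2a1, Pkm, Rps25 and Actn3 lay 2 to 5 bases from an exon edge. The model of Xirp1 lay 699 bases from any edge, with 7 reads in each library, or 17.9% of the gene's reads in replicate 1 and 20.0% in replicate 2. That of 2310065F04Rik lay 141 bases from an edge, with 8 reads in replicate 1 and 28 in replicate 2, or 20.5% and 45.2%. The others were Pfkm and Pygm, both described next.

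Pfkm encodes muscle phosphofructokinase, the enzyme of the committed step of glycolysis. Its 22-exon model had 868 reads in replicate 1 and 417 in replicate 2, which is 51.2% (95% interval 48.8 to 53.6) and 56.7% (53.0 to 60.3) of the gene's reads. It was the most read of the 18 models off every edge. Both libraries gave the start chr15:98112034 (+), which is 87 bases upstream of every annotated exon with its donor and 3568 bases from the nearest start of the gene in GENCODE M21. In RefSeq a transcript of the gene starts 26 bases downstream of it. The model keeps the start codon of Pfkm-201 and lacks 146 bases of it. The RefSeq promoter window of that start (build GRCm38.p6) holds the place, and its bases chr15:98111810-98112063 are shown, with the 30 bases from the deposited start in capitals.
Pfkm: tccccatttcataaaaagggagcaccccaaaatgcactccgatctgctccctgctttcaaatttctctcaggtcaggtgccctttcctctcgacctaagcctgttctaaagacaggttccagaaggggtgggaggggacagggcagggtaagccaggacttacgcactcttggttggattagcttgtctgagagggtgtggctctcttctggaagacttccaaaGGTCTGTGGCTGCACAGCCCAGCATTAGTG

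In the whole window of 300 bases, searched on both strands, the core letters of a TATA box (TATAAA) were not found, and neither were those of a CAAT box (CCAAT) or of a GC box (GGGCGG). The letters of an E box (CANNTG), which read the same on both strands, were found once, 151 bases before the deposited start. Over all 32851 RefSeq promoter windows of the same length, the TATA letters are present in 13.6%, the CAAT letters in 37.4%, the GC letters in 35.7% and the E box letters in 72.3%. These are matches of letters and say nothing of factors bound there.

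Pygm encodes muscle glycogen phosphorylase. Its 19-exon model began at chr19:6385118 (+) in both libraries, 397 bases from any annotated exon edge and 703 bases from the nearest GENCODE start. It had 103 reads in replicate 1 and 36 in replicate 2, which is 5.19% (4.26 to 6.26) and 4.73% (3.33 to 6.49) of the gene's reads. The shares overlap in their intervals.

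Starts close to an annotated start of the gene were the smaller part. Within 50 bases of a GENCODE start lay 188 models in replicate 1 and 181 in replicate 2, and 175 (23.1%) did so in both. All but 1 of those in replicate 2 and all of those in replicate 1 were at the annotated base itself. Of 592 models whose gene has an entry in the RefSeq table, 28 lay within 50 bases of its start in both libraries. Counted by exon in place of the coordinate, the start exon was the first exon of another annotated transcript for 126 models (16.7%), which held 15.4% of the reads of the recurrent models in replicate 1 and 18.3% in replicate 2. The 736 different start exons were first exons elsewhere in 123 cases (16.7%), against 505 of the 3832 inner exons in which a read of these longer transcripts could begin (13.2%). No test was made of this difference, since the members were picked by their reads.

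Letters at the exon edges differed little between start exons and other inner exons. A pyrimidine before the first base and a purine at it, the base pair common at transcription starts, stood at 7.40% of 716 start exons and at 7.51% of 3116 other inner exons of the same transcripts. At the deposited starts themselves, where the preceding bases are known from a transcript, it stood at 82 of 637 (12.9%) in replicate 1 and 11.6% of 645 in replicate 2. The difference between these shares was not tested. In both counts the letters were read from the spliced transcript. At an exon edge the base before is therefore the last base of the preceding exon and not the genomic base before the exon. For this reason the counts cannot show whether such a pair stands there in the genome. Start exons were longer, with a median of 142 bases (quartiles 104 and 186) against 118 (84 and 166) in the other inner exons. Median GC content of the first 100 bases was 56% in start exons and 54% in the other exons.

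Along the transcript the models began at a median of 29.7% of its length from the 5′ end (quartiles 13.3 and 53.1), lacked a median of 585.5 bases and kept 1500. Position is relative to the most read annotated transcript that holds the chain. Position, bases and start codon were all counted from the 5′ edge of the start exon and not from the deposited start. Exon 2 was the start exon of 194 models (25.7%) and the last exon but 1 of 110 (14.6%). For 615 (85.8%) of 717 models with a coding longer transcript, its start codon lay upstream of the start exon, and for 102 it did not. These counts do not say whether a model itself holds the start codon. In Xirp1, among the 102, the deposited start lay 2694 bases inside the exon in both libraries. The 615 models held 81.8% of the reads of the recurrent models in replicate 1 and 85.6% in replicate 2.

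The share of a gene's reads ranged widely. The median model took 2.30% of its gene's reads in replicate 1 and 2.79% in replicate 2. A share above 10% in both libraries was found for 173 models and one above 50% in both for 35, while 194 had under 1% in both. A second measure counts only reads that cross the first intron of the model, and leaves out the gene's other reads. Of these reads the median model held 2.92% in replicate 1 and 4.02% in replicate 2, and 72 models held over 50% in both.

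Subunits of the mitochondrial ATP synthase were among the most read models. Atp5f1, a subunit of the stator stalk, had 1006 reads in replicate 1 and 610 in replicate 2 on its model from exon 2, which is 93.7% (92.0 to 95.1) and 91.0% (88.6 to 93.1) of the gene's reads. Atp5j, another stalk subunit, had 795 and 817 reads on its model from exon 2, or 76.4% (73.7 to 79.0) and 80.3% (77.7 to 82.7). In both genes the start codon lies in the start exon or after it, and the model begins at the annotated start of another transcript of the gene. Most reads of both genes thus began in exon 2, in both libraries. Atp5b, the catalytic beta subunit, had 1364 reads in replicate 1 and 2471 in replicate 2 on a 2-exon model from exon 9 of 10, or 23.2% (22.1 to 24.3) and 63.1% (61.6 to 64.6) of its reads. Ndufa4, a subunit found with cytochrome c oxidase, had 657 and 1647 reads from exon 3 of 4, or 42.4% (39.9 to 44.9) and 65.4% (63.5 to 67.3). In Atp5b and Ndufa4 the start codon lies upstream of the start exon, and the intervals of the libraries do not overlap.

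Proteins of calcium handling gave a similar mix. Hrc, a calcium-binding protein of the sarcoplasmic reticulum, had 654 reads in replicate 1 and 1685 in replicate 2 on its 4-exon model from exon 3, which is 86.7% (84.1 to 89.1) and 93.9% (92.7 to 94.9) of the gene's reads. This model is 255 bases long and lacks the exon of 2085 bases at the 5′ end of Hrc-201. Trdn, the triadin of the release channel complex, had 138 and 512 reads on a 5-exon model, or 16.0% (13.6 to 18.6) and 48.5% (45.5 to 51.6). Its longer chain is an unannotated model of the library, as for 29 of the 756. Ryr1, the release channel itself, had 178 reads in replicate 1 and 44 in replicate 2 from exon 91 of 106, or 40.2% (35.6 to 44.9) and 29.1% (22.0 to 37.1) of its reads. Of the reads across the intron after that exon, 62.2% in replicate 1 and 60.3% in replicate 2 were on this model. Exon 91 is 792 bases long. The next exon of Ryr1 held 64 and 31 reads.

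Among sarcomere proteins, high shares were found for Tnnt1, the troponin T of slow fibres. Its 3-exon model had 368 reads in replicate 1 and 715 in replicate 2, or 80.3% (76.4 to 83.9) and 94.1% (92.2 to 95.6) of the gene's reads, and began at an annotated start 413 bases upstream of every exon with its donor. Several of the most read proteins of the fast sarcomere had many reads on such models and lower shares. Suffix models of any kind took 45.2% of the reads of Myh4 in replicate 1 and 62.3% in replicate 2. By the same count the heavy chain genes Myh1 and Myh2 had 39.7% and 61.1% in replicate 1. In replicate 2 they had 37.0% and 55.1%. Acta1, skeletal actin, had 1755 reads in replicate 1 and 638 in replicate 2 from exon 3, or 2.02% and 1.40%. Myl1, the essential light chain, had 846 and 1703 from exon 4, or 5.62% and 13.6%. A second Myl1 model began 652 bases upstream of every annotated exon with its donor, at an annotated start of the gene at chr1:66935350. This start lies in exon 1 of Myl1-202 (chr1:66935276-66935354). From there the model's first exon runs unbroken to the end of exon 2, across the intron between them, so it is not a start inside the gene. The model had 199 reads in replicate 1 and 124 in replicate 2, or 1.32% (1.15 to 1.52) and 0.991% (0.825 to 1.18). Mylpf, the regulatory light chain, had 3 models upstream of every annotated exon with their donor, of which the most read had 264 and 188 reads, or 1.10% and 0.949%. Tnni2, fast troponin I, had 329 and 259 reads on a model that began 514 bases upstream at an annotated start, or 7.79% and 9.70%.

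Genes outside these groups filled the rest of the highest shares. Cdh13, the cell adhesion protein T-cadherin, had 135 reads in replicate 1 and 53 in replicate 2 from exon 2 of 14, or 78.9% (72.1 to 84.8) and 74.6% (62.9 to 84.2). Pink1, a mitochondrial kinase, had 377 and 184 reads from exon 4, or 52.2% and 58.0%. Ssbp1, which binds single-stranded mitochondrial DNA, had 55 and 160 reads, or 49.1% and 73.4%. Fabp4, the fatty acid carrier of fat cells, had 68 and 83 reads, or 54.4% and 63.8%, and the lipocalin gene Lcn8 had 28 and 95, or 47.5% and 63.3%. Genes with near-identical copies, among them the neighbouring myosin heavy chains, can share reads with those copies, and how such reads were assigned is not given in the sources used here.

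**Figure D3:**
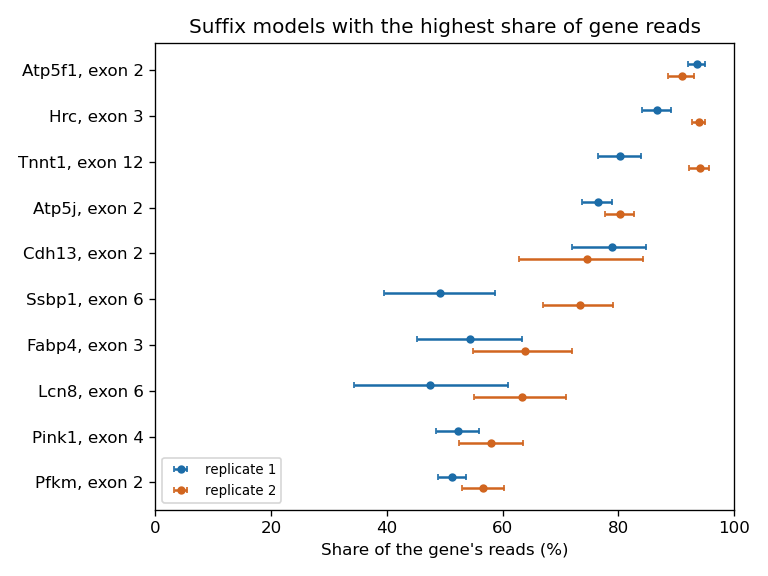
Share of the gene's reads, in percent, on each of the 10 Suffix models with the highest mean share among genes with at least 50 reads in each library, in replicate 1 (blue) and replicate 2 (orange), with exact 95% intervals for counting error. Atp5f1 is at 93.7% in replicate 1 and 91.0% in replicate 2, and the intervals of the libraries do not overlap for Hrc, Tnnt1 and Ssbp1.

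By function, the sarcomere list had 187 models in 26 of its 40 genes, with a median share of 0.904% in replicate 1 and 0.898% in replicate 2. Excitation-contraction coupling had 48 models in 13 of 22 genes, glycolysis and glycogen 77 in 14 of 25, and oxidative metabolism 48 in 19 of 34. The extracellular matrix list had 35 in 7 of 22 genes, all 7 with members being collagens, Sparc or Fmod, and the giant and large structural proteins had 25 in 11 of 26. The translation list had 16 in 8 of 16. All Suffix models together took 26.7% in replicate 1 and 22.1% in replicate 2 of the reads of the matrix genes and 23.8% and 17.9% of those of the giant proteins, against 7.57% and 8.16% over all known genes. A further list held 33 gene names for which an inner promoter or first exon was taken as known, which was not checked here. In it 40 models lay in 12 genes, and the start exon was an annotated first exon for 4 of the 40, against 126 of all 756. In the matrix list none of 35 models began in an annotated first exon.

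Reads of a gene's Suffix models could fall in a single exon or be spread along the transcript. Of the 371 genes, 264 had 1 member, 76 had 2 to 4, and 31 had 5 or more, which together hold 317 members. In 170 genes with at least 20 Suffix reads in each library, the leading start exon took a median of 56.2% of the Suffix reads in replicate 1 and 63.3% in replicate 2. In 46 of these genes over 80% of the Suffix reads began in 1 exon in both libraries, 3 of them with a longer transcript of at most 3 exons, which leaves no other exon for a spliced Suffix model to begin in. In 31 the leading exon had under 30% in both libraries. The same exon led in both libraries in 113 (71.1%) of 159 genes that had 2 or more start exons. Atp5b was of the first kind, with 87.4% of its Suffix reads in replicate 1 and 95.9% in replicate 2 in its leading exon.

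Collagen genes were at the other end. Col1a2, a chain of type I collagen, had 646 Suffix reads in replicate 1 and 131 in replicate 2, which is 88.5% and 73.2% of its reads, and the leading exon held 5.42% and 6.11% of them. These reads began in 49 different exons in replicate 1 and 44 in replicate 2. Col1a1, the other chain, had 869 and 126 Suffix reads in 50 and 40 exons, with 5.29% and 7.14% in the leading exon. A different exon led in the 2 libraries in both genes. Fibroblast markers, which include these genes, were lower in replicate 2 (8757 CPM in replicate 1 and 3762 in replicate 2), and their part in these counts was not tested.

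Myosin heavy chains were also read from nearly every exon. Myh4, the heavy chain of the fastest fibres, had the most members, 37, and 35 of the 36 inner exons of Myh4-202 held one. Of the reads that cross the intron after an exon, a median of 1.35% in replicate 1 and 1.58% in replicate 2 began in that exon. Several exons were high in both libraries, as exon 25 (4.55% and 4.995%), exon 14 (4.17% and 4.01%) and exon 10 (4.00% and 3.10%). Exon 36 had 1.34% in replicate 1 and 29.2% in replicate 2, and exon 3 had 3.88% and 9.00%. Across the 36 exons the Spearman correlation between the libraries was 0.837, and with exon length it was 0.601 in replicate 1 and 0.679 in replicate 2, where both profiles share the transcript and its exon lengths. Myh1, another fast heavy chain, had 22 members, with its highest share in exon 3 (14.5% and 11.4%) and another high value in exon 27 (3.56% and 3.21%).

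The relation to exon length varied among the other genes with many members. Mybpc2, the fast myosin-binding protein C, had members in 23 of 26 inner exons, with a correlation of start share and exon length of 0.430 in replicate 1 and 0.620 in replicate 2. Its exon 12 led in replicate 1 (3.13%, with 1.91% in replicate 2) and exon 26 in replicate 2 (1.48% in replicate 1 and 5.12% in replicate 2). Atp2a1, the calcium pump of fast fibres, had 24 members, yet its Suffix reads were 3.34% of the gene's reads in replicate 1 and 3.23% in replicate 2. Its exon 8 had 0.565% and 0.497%. Actn3, the alpha-actinin of fast fibres, had 17 members, exon 6 led with 1.34% and 1.54%, and the correlation with exon length over its 19 exons was 0.105 and 0.286. Tnnt3, fast troponin T, had 13 members and 26.0% and 36.6% of its reads on Suffix models, and over 8 of its exons the correlation with length was -0.262 and -0.167.

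**Figure D4:**
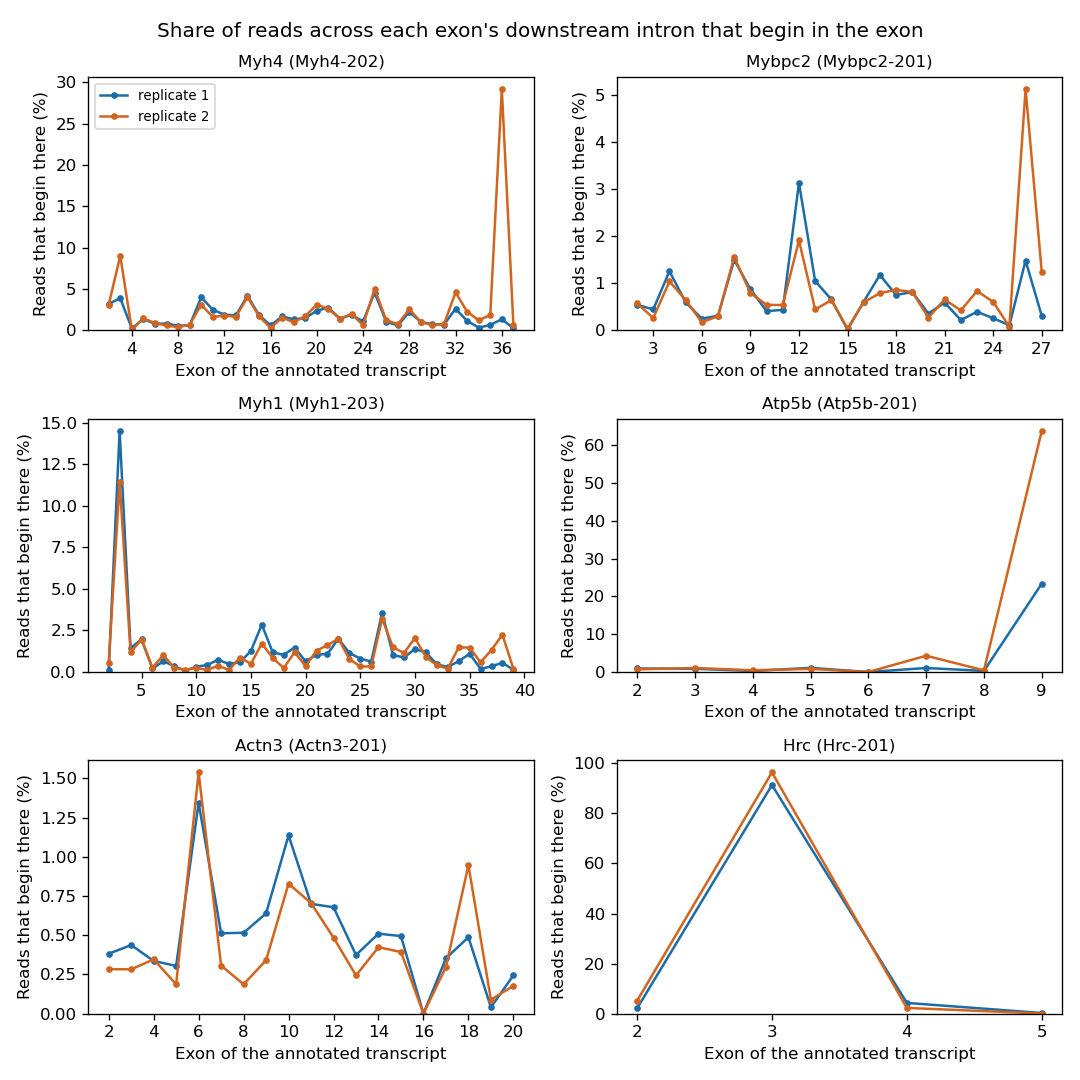
For each inner exon of the annotated transcript of 6 genes, the percent of reads crossing the intron after the exon that begin in that exon (vertical, linear, own scale per panel), in replicate 1 (blue) and replicate 2 (orange). Mybpc2 and Actn3 have shares of up to 5.12% spread over most exons, Myh4 and Myh1 have low shares in most exons with 29.2% in exon 36 of Myh4 in replicate 2 and 14.5% in exon 3 of Myh1 in replicate 1, Hrc exon 3 holds 91.3% in replicate 1 and 96.4% in replicate 2, and Atp5b exon 9 holds 23.4% and 63.8%.

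The libraries were compared model by model, with Fisher's exact test of the chain's reads against the other reads of its gene, in genes with at least 20 reads in each library and with Benjamini-Hochberg adjustment over all 37827 chains tested. Of the 716 recurrent Suffix models that could be tested, 78 (10.9%) differed in share, 22 being higher in replicate 1 and 56 higher in replicate 2, against 1.83% of all chains (0.708% higher in replicate 1 and 1.13% higher in replicate 2). Among other chains with at least 5 reads in each library 8.34% differed, 4.12% being higher in replicate 1 and 4.22% higher in replicate 2. Annotated chains with such reads differed in 5.47% of cases, with 5.09% higher in replicate 1 and 0.381% higher in replicate 2. The median log2 of the share, replicate 1 over replicate 2, was -0.13 in the recurrent Suffix models, 0.01 in the other chains and 0.04 in the annotated ones. The share of differing Suffix models was thus 10.9%, against 8.34% of other chains and 5.47% of annotated chains with such reads. Most of the 78 were higher in replicate 2, while the other chains were split nearly evenly and the annotated ones were mostly higher in replicate 1.

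The 8 models with the smallest adjusted p were all higher in replicate 2. Myh4 from exon 36 had 243 reads in replicate 1 and 2013 in replicate 2, or 1.32% (1.16 to 1.49) and 28.0% (27.0 to 29.1) of the gene's reads, a log2 ratio of -4.41. Atp5b from exon 9 had a log2 ratio of -1.44 and Ndufa4 from exon 3 one of -0.62 (exact test, adjusted p = 1.18e-43). Ckm from exon 7 had 1424 reads in replicate 1 and 1886 in replicate 2, or 1.95% and 4.33% (log2 ratio -1.15, exact test, adjusted p = 1.10e-114). Myl1 from exon 4 had a ratio of -1.28 (exact test, adjusted p = 4.29e-112) and Trdn one of -1.60 (adjusted p = 4.35e-50). Tnnc2, fast troponin C, had 64 and 314 reads, or 0.263% and 1.32% (-2.32, exact test, adjusted p = 2.41e-39). Tpm1, a tropomyosin, had 78 and 196 reads, or 0.256% and 1.29% (-2.33, exact test, adjusted p = 2.03e-35).

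The 22 models higher in replicate 1 included several of Myh4 and Acta1. Acta1 from exon 3, which keeps 1245 bases, had a log2 ratio of 0.52 (exact test, adjusted p = 1.94e-13). Myh4 from exon 10 had 451 reads in replicate 1 and 92 in replicate 2, or 2.44% and 1.28% of the gene's reads (0.93, exact test, adjusted p = 2.88e-07). Among models described above, Atp5j, Atp5f1, Pfkm, Pink1, Cdh13, Fabp4, Lcn8 and Ryr1 did not pass the threshold of the exact test, at adjusted p of 0.842, 0.979, 0.460, 1.0, 1.0, 1.0, 0.920 and 0.542.

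Split by the bases kept from the start exon on, the ratio followed length. Of 91 models with up to 500 bases, 0 were higher in replicate 1 and 27 in replicate 2, with a median log2 ratio of -0.67 (2 and 40 at an unadjusted p under 0.05). Of 170 with over 500 to 1000 bases, 1 was higher in replicate 1 and 19 in replicate 2 (median -0.39). Of 214 with over 1000 to 2000 bases, 5 were higher in replicate 1 and 7 in replicate 2 (median -0.05), and of 241 with more than 2000 bases, 16 were higher in replicate 1 and 3 in replicate 2 (median 0.08). The shortest group took 10.1% of the reads of the recurrent models in replicate 1 and 28.6% in replicate 2. Over the 716 models the Spearman correlation of the ratio with the bases kept was 0.312 and the Pearson correlation with their log2 was 0.312. With the deposited length of the models in place of the bases kept, the Spearman correlation was 0.375. Models of 1 gene share their reads, so these points are not independent. Depth also differed between the libraries, and its part in these ratios is touched only by thinning replicate 1 to the reads of replicate 2, which left 66 models that differed.

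**Figure D5:**
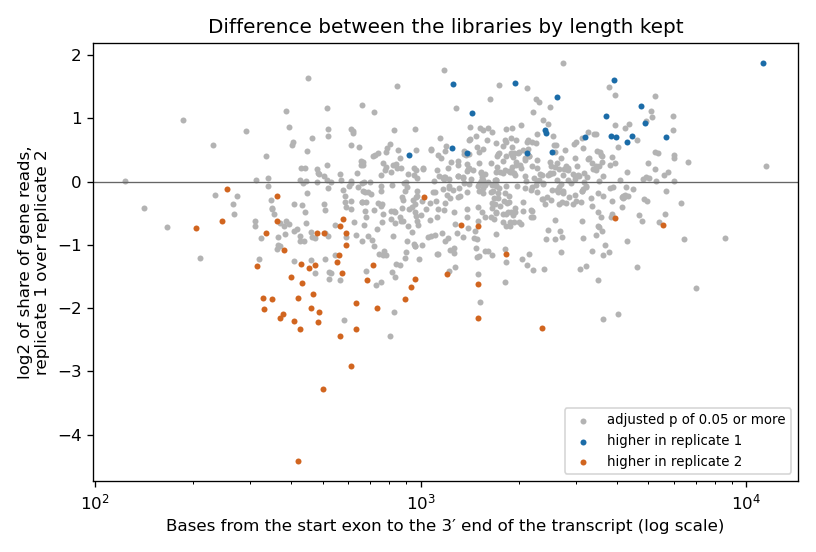
Log2 of the share of gene reads in replicate 1 over replicate 2 (vertical) against the bases from the start exon to the 3′ end of the longer transcript (horizontal, log scale) for the 716 Suffix models tested. Orange points passed the test as higher in replicate 2 and lie mostly below 1000 bases, blue points passed as higher in replicate 1 and lie mostly above 2000 bases, and grey points did not pass.

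Counts of differing models by list stand against 10.9% of all recurrent Suffix models tested and 1.83% of all chains. In the sarcomere list 17 of 187 models were higher in replicate 1 and 22 higher in replicate 2. In oxidative metabolism 1 of 48 was higher in replicate 1 and 4 were higher in replicate 2 (median log2 ratio -0.35), in excitation-contraction coupling 0 of 48 and 5 (4 and 8 at an unadjusted p under 0.05), and in glycolysis and glycogen 2 of 77 and 6. By Fisher's test 0 of the 35 matrix models differed in either direction, with a median log2 ratio of -0.26 (0 higher in replicate 1 and 4 in replicate 2 at an unadjusted p under 0.05). In addition, 1 of 25 models of the giant proteins was higher in replicate 1, that of Xirp2 (48 and 8 reads, or 43.6% and 11.9%, exact test, adjusted p = 0.000924). In the list for inner promoters or first exons 1 of 40 was higher in replicate 1 and 8 were higher in replicate 2, and in the translation list 0 of 16 and 1 (1 and 1 at an unadjusted p under 0.05).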

How the data were processed

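Long-read RNA-seq of total RNA from 2 gastrocnemius libraries was analysed. For each library the authors deposited a table with the count of reads on every transcript model and the exons of these models on mm10, set against GENCODE M21. Aligner and versions are not given in these sources. ERCC RNAs were set aside. Chains were joined by gene, strand and introns. Models were set against GENCODE M21 exons and RefSeq promoter windows of 250 bases before to 50 after a start. For 727 models the longer transcript was the annotated transcript with the most reads, and for 29 an unannotated one. CPM are counts per 1000000 reads. Shares carry exact Clopper-Pearson 95% intervals. Fisher's exact tests were two-sided, with Benjamini-Hochberg adjustment and a threshold of 0.05, and were tested on simulated counts. The test on reads compares libraries, and with 2 libraries of 1 group no test between conditions exists. Named are the 10 models with most reads and the 10 with highest share, up to 8 each upstream, near an annotated start or with the smallest adjusted p, the 6 genes with most models, and up to 3 models per list; a gene that these rules name is not reported here. Xirp1, Xirp2, 2310065F04Rik, Pygm, Ttn, Lmod3, Naca, Rps25, Pkm, Col1a1, Col1a2, Myh2 and the Myh4 model from exon 10 were chosen after their values were seen. Members and lists were chosen with earlier results of these data known. Work was done in Python 3.11.15 with scipy 1.17.1, pandas 2.3.3 and numpy 2.4.6, and plots were drawn with matplotlib 3.10.9.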

Additional observations from a re-analysis of the deposited data

Results flagged for a closer look

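Suffix models also occurred at loci outside the annotation, which the comparisons above do not use. Models of antisense and intergenic loci together held 35 reads in replicate 1 and 12 in replicate 2. They were 13 models in replicate 1 and 9 in replicate 2, and 4 chains occurred in both. No control samples exist to set them against.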

How the results depend on the processing

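The number of recurrent Suffix models follows the read minimum: 1992 with at least 2 reads in each library, 1263 with 3, 404 with 10 and 224 with 20, against 756 with 5. Asking for 5 reads in a single library gave 883 and 1797. Starts lay within 50 bases in 88.2% and within 100 bases in 90.3%, against 85.4% within 10 bases. In a single library 23.9% and 24.9% lay near an annotated start and 10.98% and 13.4% upstream of every exon with their donor, against 23.1% and 9.26% in both. Added after the data were seen, an annotated first exon as the criterion gave 16.7% in place of 23.1%. The mean share of known-gene reads on Suffix models was 8.56% among spliced models alone, against 7.86%. The median share of a gene's reads was 3.50% with reads across the first intron as denominator and, added after the data were seen, 1.73% in genes with at least 50 reads in each library, against 2.70%. The leading chain took a median of 84.7% of a gene's recurrent Suffix reads, against 62.0% of all its Suffix reads. A gene with 1 recurrent model stands at 100% in the first count by definition, so the higher value does not show tighter clustering. Of the 78 models that differed between libraries, 31 keep over 1000 bases (a split added after the data were seen), and the other 4 settings of that test called 66 to 83. Among 134 alternatives for 45 named models none changed direction, 2 lost the threshold and 4 gained it. Mylpf from exon 5 (exact test, adjusted p = 0.0326) had 0.0533 without the genomic class, whose reads overlap a gene but not its splicing, and Tnnt3 from exon 14 (0.0391) had 0.296 with replicate 1 thinned to the reads of replicate 2. The search for TATA letters upstream of all starts was not run, and only the Pfkm window was searched. No paired analysis was possible because there is 1 group. Models with 5 or 6 reads are limited by depth, and starts by their place on exon edges.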
